A study of Mus musculus with 9 samples.

Results

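The transcription factor ATF4, the stress genes and amino acid enzymes it is known to drive, and the cytosolic aminoacyl-tRNA synthetases were followed in mouse embryonic stem cells grown in 3 media. Members were the rows of the expression table whose gene symbol stood on a fixed list. That list held 34 genes, 21 of them regulators, enzymes and effectors and 13 of them synthetases, and all 34 were found among the 24819 gene symbols of the table. The cells were of the E14 line, a widely used mouse embryonic stem cell line, kept on gelatin-coated plates, and no genotype other than the line itself is named. The first group, ES, was grown in DMEM with high glucose, serum and leukemia inhibitory factor (LIF), to which glutamine, non-essential amino acids, antibiotics and β-mercaptoethanol were added. The second, 2iLIF, was grown in N2B27 with 2iLIF, that is LIF and the inhibitors of MEK and GSK3 known as 2i. The third, EPSCM, was grown in expanded potential stem cell medium. The sources used here do not state the amino acid content of the last 2 media. The series' design text calls the cultures stable in their medium. Each medium had 3 libraries of polyadenylated RNA, 9 in all. Because only 1 line was used and separate cultures are not named, each p-value refers only to the spread among these 9 libraries, and that spread may be technical.

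When amino acids run short or proteins misfold, kinases phosphorylate the initiation factor eIF2, general translation slows, and the message of Atf4 is translated more because of the short reading frames in its leader. ATF4 protein then pairs with other leucine zipper factors at composite C/EBP-ATF elements and switches on genes for amino acid synthesis, amino acid transport and tRNA charging, along with feedback genes that restart translation or promote cell death. Because much of this control acts on translation, the RNA level of Atf4 is not a measure of ATF4 protein. The RNA data here cover the message of Atf4 and of its target genes, not phosphorylation of eIF2.

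Levels are given in FPKM, fragments scaled to transcript length and library size, as mean ± SD over n = 3 libraries, and differences as limma estimates ± SE on the log2(FPKM + 1) scale, a scale on which low genes change less than in FPKM. Calls of higher or lower required 2 things: a limma adjusted p under 0.05, with adjustment over all 12330 genes that reached 1 FPKM in at least 3 libraries, and an absolute log2 difference of 1 or more. All 34 members passed that filter on low values. In bulk RNA, fewer cells expressing a gene and less RNA per cell cannot be told apart. The steps between the lowest values give only a rough depth, at which a single fragment on 1 kb of transcript equals 0.0313 to 0.0497 FPKM depending on the library, far below the level of any member. In each medium 1 library stood apart from the remaining pair across genes (ES replicate 1, 2iLIF replicate 1 and EPSCM replicate 2; r = 0.9855 to 0.9902 against 0.9959 to 0.9967 for the other pairs). For 33 of 34 members this library deviated in the same direction in all 3 media, as it did for 9376 of 12330 genes tested. The largest shift on the log2 scale was 0.52 among the members and 8.11 among all genes tested. Leaving the 3 libraries out, an alternative chosen after seeing the data, gave the same counts of members called in both EPSCM comparisons and 1 more lower call, Chac1, in 2iLIF against ES. Stem cell identity was checked with 8 pluripotency markers, all above 1 FPKM in every library, with a summed level of 3314 to 3667 FPKM in ES, 2782 to 3075 in 2iLIF and 2205 to 2313 in EPSCM. Pou5f1, which encodes OCT4, was at 1352 ± 162 FPKM in ES and 627 ± 88.4 in EPSCM and was called lower there (-1.11 ± 0.13). Of the 8 markers, 2 were called lower and none higher in EPSCM against ES, the other being Zfp42 (-1.70 ± 0.09), and 2 against 2iLIF, Zfp42 (-1.30 ± 0.09) and Klf4 (-1.21 ± 0.05), while Fgf4 differed by 0.94 ± 0.05 from ES. Of 10 fibroblast markers 3 were tested, and the summed level was 36.0 ± 2.98 FPKM in ES, 33.9 ± 2.01 in 2iLIF and 81.6 ± 8.51 in EPSCM, where Fbln1 made up 68.5 ± 7.27. Fbln1 and Pdgfrb were called higher in EPSCM than in ES (1.75 ± 0.09 and 1.56 ± 0.10), while Thy1 was called lower than in ES (-1.13 ± 0.09) and higher than in 2iLIF (2.31 ± 0.09). Pdgfra, on both the fibroblast and the endoderm list, was not tested and had 1.04 ± 0.0918 FPKM under EPSCM conditions against 0.242 ± 0.0677 under ES conditions. The collagen genes that define fibroblasts stayed below 1 FPKM, with Col1a1 having 0.276 ± 0.0412 FPKM under EPSCM conditions and 0.383 ± 0.0155 under ES conditions, and Col3a1, Postn, Lum and Dcn were at or near 0. Primitive endoderm markers summed to 54.9 to 60.7 FPKM in ES, 44.5 to 49.8 in 2iLIF and 66.0 to 74.1 in EPSCM, and of the 7 tested 3 were called higher and 1 lower in EPSCM against ES. Those higher were Col4a1 (2.05 ± 0.06), Gata6 (1.32 ± 0.06) and Gata4 (1.21 ± 0.10), and the one lower was Sox7 (-1.88 ± 0.05). Of the 7, 4 had a positive and 3 a negative difference, the latter including Lama1 (-0.33 ± 0.08) and Lamb1 (-0.63 ± 0.09). Col4a1 alone was at 27.1 ± 1.09 FPKM in EPSCM and 5.79 ± 0.223 in ES. Sox17 and Foxa2 stayed below 1 FPKM on average in each medium. Over all genes tested, 11.7% were called higher and 7.97% lower in EPSCM against ES, and 10.1% and 5.91% against 2iLIF. The part of these marker shifts in the results below was not tested.

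In EPSCM most members stood below their level in ES. Of the 34 members 10 were called lower and 1 higher, where 7.97% of all genes tested were called lower, 11.7% higher and 19.7% in either direction. The genes called lower were Atf4, Atf5, Trib3, Phgdh, Psat1, Mthfd2, Sesn2, Gars, Lars and Wars, and the gene called higher was Ddit3. The median difference over the members was -0.84, against 0.09 over all genes tested. Without the fold limit, 28 members were lower and 4 higher by limma, against 31.5% and 41.6% of all genes tested. Many members lay near the fold limit, so the count of members called lower was 15 when libraries were scaled to the same median ratio and 8 after quantile normalization. Over all genes tested, 1440 were called higher and 983 lower, and after quantile normalization 1141 and 1162.

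Against 2iLIF, EPSCM showed fewer calls. Of the 34 members 4 were called lower (Atf4, Atf5, Nupr1 and Asns) and 2 higher (Ddit3 and Cebpb), where 5.91% and 10.1% of all genes tested were called, 16.1% in either direction. Over all genes tested these were 1250 higher and 729 lower, and after quantile normalization 1010 and 902. The median difference of the members was -0.33, against 0.03 over all genes tested. Without the fold limit 20 members were lower and 4 higher by limma, against 31.4% and 36.6% of all genes tested. Between 2iLIF and ES, 3 members were called lower in 2iLIF (Cebpb, Phgdh and Mthfd2) and 1 higher (Asns), where 7.12% and 7.62% of all genes tested were called, 14.7% in either direction, and the median was -0.44 against 0.03. Without the fold limit 23 members were lower and 6 higher by limma, against 32.2% and 34.8% of all genes tested. The 3 comparisons share libraries, so their counts are not independent. By limma's F statistic over the 3 media, 33 of 34 members differed at an adjusted p under 0.05, against 85.5% of all genes tested. Cebpg was the exception (adjusted p = 0.0783), but all 34 passed with a covariate for the apart libraries, with scaling to the same median ratio and without EPSCM replicate 3.

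The order of the media was also read from the libraries directly. All 3 ES libraries lay above the other 6 in 23 members, against 19.5% of all genes tested. All 3 EPSCM libraries lay below the other 6 in 18 members, against 19.5% of all genes tested, and these included 11 of the 13 synthetases. Only Ddit3 among the members was highest in EPSCM without overlap, where 26.6% of all genes tested were. Asns, Atf5, Nupr1 and Pycr1 were highest in 2iLIF without overlap (17.6% of all genes tested), and Atf3, Ppp1r15a and Pycr1 lowest in ES (24.7%). Cebpb, Phgdh and Vars were lowest in 2iLIF, as were 18.7% of all genes tested.

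**Figure D1:**
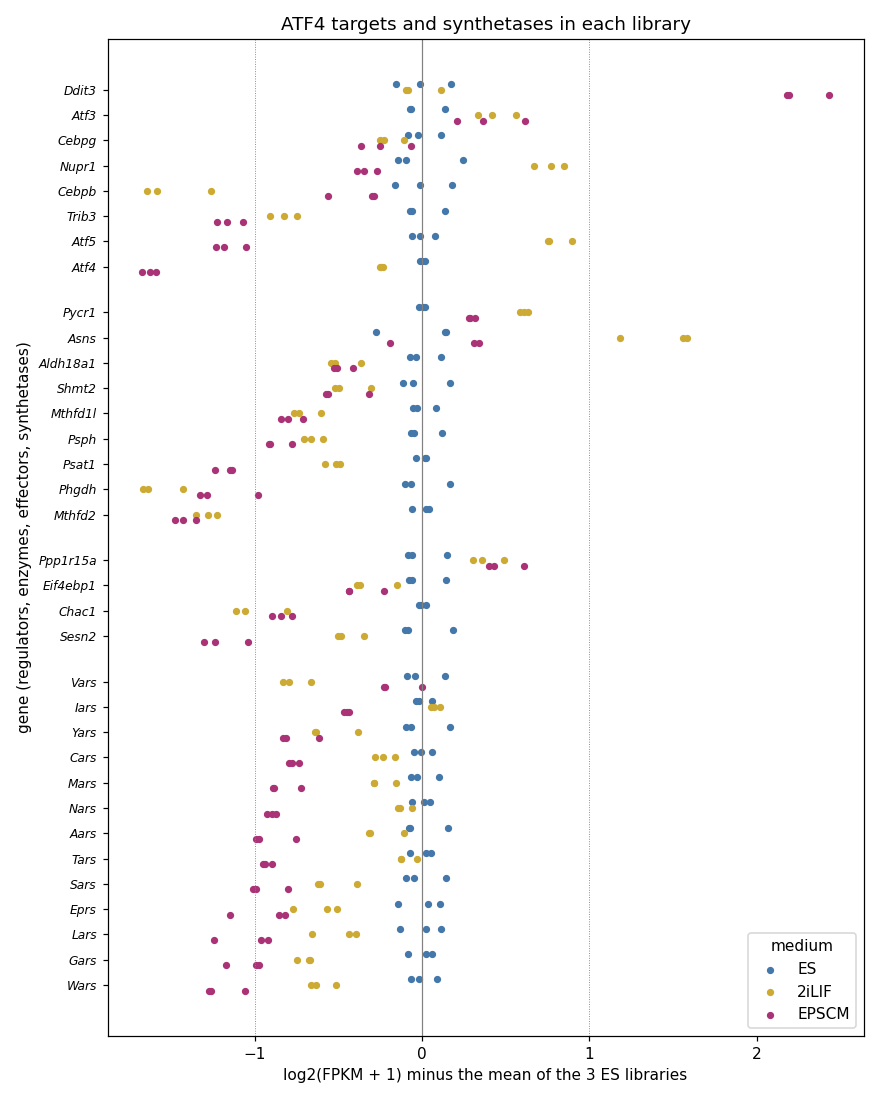
Level of each of the 34 members in each of the 9 libraries, as log2(FPKM + 1) minus the mean of the 3 ES libraries (horizontal axis); each point is 1 library, coloured by medium, and dotted lines mark a difference of 1. Most EPSCM points lie to the left of the ES points, Ddit3 lies far to the right, and Asns and Atf5 have their 2iLIF points on the right.

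Among the regulators, Atf4 itself showed the smallest spread and one of the clearest separations. Its level was 239.6, 234.7 and 236.1 FPKM in the ES libraries, 198.8, 201.2 and 199.8 in 2iLIF and 77.9, 73.4 and 75.9 in EPSCM. The EPSCM libraries were thus all well below the other 6, at about 0.320 of the ES mean and 0.379 of the 2iLIF mean. Its difference in EPSCM was -1.63 ± 0.04 against ES (limma adjusted p = 1.26e-08) and -1.39 ± 0.04 against 2iLIF (limma adjusted p = 2.35e-08). Between 2iLIF and ES its difference was -0.24 ± 0.04 (limma adjusted p = 0.0011), short of the fold limit, with no overlap between libraries.

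Atf5, a related factor that is itself controlled by stress, followed a different order. It stood at 24.8, 22.4 and 23.2 FPKM in ES, 44.5, 40.4 and 40.1 in 2iLIF and 9.40, 10.8 and 9.75 in EPSCM. It was lowest in EPSCM and highest in 2iLIF without overlap. The EPSCM mean of 9.98 ± 0.723 FPKM was lower than in 2iLIF by a log2 difference of -1.96 ± 0.07 (limma adjusted p = 4.24e-08) and lower than in ES by -1.16 ± 0.07 (limma adjusted p = 7.97e-07). In 2iLIF against ES the difference was 0.80 ± 0.07, short of the fold limit.

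Ddit3, which encodes CHOP, a factor linked to cell death under prolonged stress, moved opposite to Atf4. It measured 13.02, 11.3 and 10.2 FPKM in ES, 12.5, 10.7 and 10.7 in 2iLIF and 55.6, 66.3 and 56.0 in EPSCM. The ES and 2iLIF libraries overlapped and every EPSCM library was above all of them. Ddit3 rose by 2.27 ± 0.11 against ES (limma adjusted p = 1.71e-07) and by 2.29 ± 0.11 against 2iLIF (limma adjusted p = 1.61e-07). The ratio of the EPSCM mean to the ES mean was 5.15.

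Trib3, a pseudokinase that restrains ATF4 and AKT, fell to 9.56 ± 0.594 FPKM in EPSCM from 22.5 ± 1.99 in ES (-1.15 ± 0.08), and was at 12.3 ± 0.732 in 2iLIF. Nupr1, a small stress-induced chromatin protein, stood at 73.8 ± 4.68 FPKM in 2iLIF, against 33.98 ± 1.51 in EPSCM and 43.4 ± 6.83 in ES. Only its difference between EPSCM and 2iLIF was called (-1.10 ± 0.10, limma adjusted p = 1.43e-05). The C/EBP factors are partners of ATF4. Cebpb was near 1 FPKM in 2iLIF, at 1.03 ± 0.302, where ES had 4.73 ± 0.675 and EPSCM 3.39 ± 0.462. It was called lower in 2iLIF than in ES (limma adjusted p = 9.58e-06) and higher in EPSCM than in 2iLIF (1.12 ± 0.13), and the latter call was lost after quantile normalization at 0.85. Cebpg stayed between 6.16 and 8.96 FPKM in all 9 libraries, and the EPSCM libraries overlapped those of both other media. Atf3, an early stress factor, was the member with the lowest levels, at 1.21, 0.917 and 0.912 FPKM in ES, 1.97, 1.53 and 1.68 in 2iLIF and 1.32, 2.08 and 1.58 in EPSCM, and had no call.

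**Figure D2:**
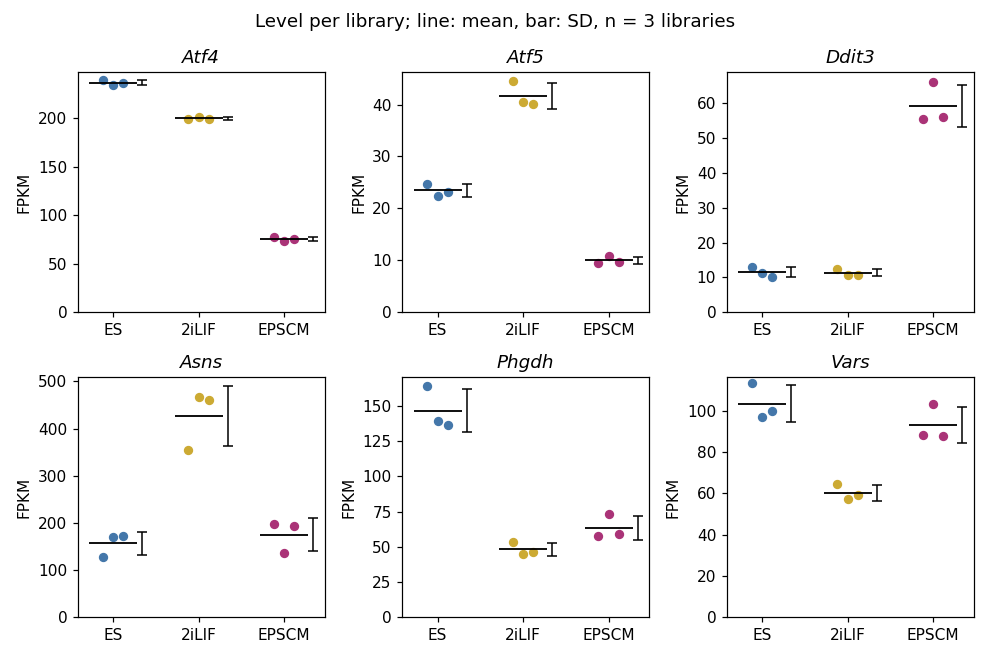
FPKM (vertical axis, from 0) of Atf4, Atf5, Ddit3, Asns, Phgdh and Vars in each library by medium; points are libraries, lines are means and bars are SD (n = 3 libraries). The 6 genes show different orders of the media: Atf4 is lowest and Ddit3 highest in EPSCM, Asns and Atf5 are highest in 2iLIF, and Phgdh and Vars are lowest in 2iLIF.

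Of the 9 amino acid and one-carbon enzymes, 3 were called lower and none higher in EPSCM against ES, where 7.97% and 11.7% of all genes tested were, and 7 had a negative difference (median -0.79). The serine pathway makes serine from a glycolytic intermediate in 3 steps, and 2 of its 3 genes were called lower. Phgdh, its first enzyme, fell to 63.5 ± 8.78 FPKM in EPSCM and 48.4 ± 4.55 in 2iLIF from 147 ± 15.4 in ES. By library it stood at 164, 140 and 136 FPKM in ES, 53.6, 45.3 and 46.3 in 2iLIF and 57.6, 73.6 and 59.3 in EPSCM, so the ES libraries were separate from the rest. Its differences were -1.20 ± 0.11 for EPSCM and -1.58 ± 0.11 for 2iLIF, each against ES. Psat1, the second enzyme, was at 194 ± 4.59 FPKM in ES, 134 ± 4.10 in 2iLIF and 85.3 ± 3.28 in EPSCM, with each medium separate from the others. Only its difference between EPSCM and ES was called (-1.18 ± 0.05, limma adjusted p = 1.16e-07), and quantile normalization left it at -0.97. Psph, the phosphatase that ends the pathway, was at 35.9 ± 2.65, 22.4 ± 0.960 and 19.2 ± 1.10 FPKM in ES, 2iLIF and EPSCM, a difference of -0.87 ± 0.07 between EPSCM and ES.

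The mitochondrial one-carbon enzymes take the carbon unit from serine to formate. Mthfd2 was at 65.8, 65.2 and 61.3 FPKM in ES, 26.8, 25.7 and 24.5 in 2iLIF and 23.1, 24.5 and 22.4 in EPSCM, with 2iLIF and EPSCM overlapping slightly and ES far above. Mthfd2 differed from ES by -1.42 ± 0.06 in EPSCM (limma adjusted p = 9.01e-08) and by -1.29 ± 0.06 in 2iLIF (limma adjusted p = 1.54e-07), both called. Between EPSCM and 2iLIF the difference of -0.13 ± 0.06 did not pass (limma adjusted p = 0.0713). Mthfd1l, which releases formate, and Shmt2, which splits serine to glycine, lay below ES by -0.79 ± 0.07 and -0.49 ± 0.10 in EPSCM, short of the fold limit.

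Asns, which makes asparagine and is a classic ATF4 target, did not follow Atf4 in the comparisons with ES. Both were called lower in EPSCM than in 2iLIF, where the difference of Atf4 was -1.39 ± 0.04. The level of Asns was 128, 171 and 172 FPKM in ES, 354, 468 and 460.1 in 2iLIF and 197, 136 and 193 in EPSCM. The 2iLIF libraries were above all others, while ES and EPSCM overlapped. Asns rose by 1.44 ± 0.18 in 2iLIF against ES (limma adjusted p = 9.87e-05), and EPSCM was lower than 2iLIF by a difference of -1.29 ± 0.18 (limma adjusted p = 0.000191). Between EPSCM and ES it was at 0.15 ± 0.18 (limma adjusted p = 0.462), while Atf4 stood at 0.320 of its ES mean in the same libraries. The lowest Asns value of each medium came from the library that stands apart, by -0.39 to -0.52 on the log2 scale. Leaving out 1 library moved the EPSCM difference from ES between 0.0151 (without ES replicate 1) and 0.327 (without EPSCM replicate 2), and quantile normalization gave 0.36, all under the fold limit. With a covariate for the apart libraries, which cannot move the estimate because each medium holds 1 of them, its limma adjusted p was 0.000505.

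The proline enzymes split. Pycr1, the last step of proline synthesis, was at 28.3 ± 0.484 FPKM in 2iLIF, 22.6 ± 0.324 in EPSCM and 18.2 ± 0.224 in ES, so that each medium was separate from the others. Aldh18a1, the first step, stood highest in ES, at 29.2 ± 2.06 FPKM against 20.7 ± 1.52 in 2iLIF and 20.6 ± 0.924 in EPSCM. None of their differences reached the fold limit. The largest was 0.61 ± 0.04 for Pycr1 in 2iLIF against ES.

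The effectors feed back on translation and growth. Sesn2, which senses leucine and restrains mTORC1, fell to 21.8 ± 2.19 FPKM in EPSCM from 51.3 ± 6.05 in ES (-1.20 ± 0.10, limma adjusted p = 5.12e-06), with 37.3 ± 2.28 in 2iLIF and no overlap among the media. Chac1, which degrades glutathione, was at 11.2 ± 0.180 FPKM in ES, 5.12 ± 0.705 in 2iLIF and 5.79 ± 0.284 in EPSCM. Its difference of -0.99 ± 0.08 between 2iLIF and ES fell just short of the limit and passed with a pseudocount of 0.1 at -1.12. Ppp1r15a, the phosphatase subunit that reverses eIF2 phosphorylation, was lowest in ES, at 18.3 ± 1.73 FPKM against 25.8 ± 2.11 in EPSCM (0.48 ± 0.09) and 24.1 ± 1.73 in 2iLIF. Eif4ebp1, a repressor of cap-dependent translation, had the highest FPKM of the 34 members in ES, at 367 ± 32.1, and differed by -0.37 ± 0.10 in EPSCM, short of the fold limit.

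The 13 cytosolic synthetases, each of which joins an amino acid to its tRNA, were lower as a group in EPSCM. Their summed level was 1565 to 1645 FPKM in the ES libraries, 1205 to 1258 in 2iLIF and 886 to 908 in EPSCM, with no overlap. Against ES, all 13 had a negative difference in EPSCM, with a median of -0.91 against 0.09 over all genes tested. For 12 of them the limma adjusted p was under 0.05, against 31.5% of all genes tested that were lower by that rule, and 3 reached the fold limit, against 7.97%. Against 2iLIF 12 of 13 had a negative difference, as did 5940 of 12330 genes tested (median -0.54 against 0.03). None was called, where 5.91% of all genes tested were called lower and 10.1% higher. Without the fold limit 11 were lower and 1 higher by limma, against 31.4% and 36.6%. Between 2iLIF and ES 12 of 13 were negative as well, as were 5952 of 12330 genes tested (median -0.50 against 0.03). None was called, against 7.12% lower and 7.62% higher over all genes tested. Without the fold limit 10 were lower and none higher by limma, against 32.2% and 34.8%. For most synthetases 2iLIF thus stood between ES and EPSCM.

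Wars, the tryptophan enzyme, differed the most. It was at 73.2, 68.1 and 65.7 FPKM in ES, 47.9, 44.1 and 43.2 in 2iLIF and 28.1, 32.5 and 27.9 in EPSCM, so that each medium was separate. Its difference in EPSCM against ES was -1.20 ± 0.08 (limma adjusted p = 9.78e-07). Gars, the glycine enzyme, fell to 111 ± 8.35 FPKM from 231 ± 11.7 in ES (-1.05 ± 0.07), and Lars, the leucine enzyme, to 48.3 ± 5.75 from 100.3 ± 8.62 (-1.04 ± 0.11). The calls of Gars and Lars were lost after quantile normalization, at -0.82 and -0.89, and without EPSCM replicate 2, at -0.98 and -0.94; Lars was also lost without ES replicate 2, at -0.99.

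A second set lay just short of the fold limit in EPSCM against ES. Eprs, the joint enzyme for glutamate and proline, was at -0.94 ± 0.11, Sars at -0.94 ± 0.09, Tars at -0.93 ± 0.05, Aars at -0.91 ± 0.10 and Nars at -0.90 ± 0.05. These 5, which charge serine, threonine, alanine and asparagine besides the pair of Eprs, are the ones that were called when libraries were scaled to the same median ratio. Eprs and Atf3 lie on chromosome 1, whose genes had a median difference of -0.29 in this comparison against 0.11 on the other autosomes except chromosome 14, by the RefSeq table; the part of this shift in the value of Eprs was not tested. Mars, Cars and Yars, for methionine, cysteine and tyrosine, followed at -0.83 ± 0.07, -0.77 ± 0.05 and -0.76 ± 0.10.

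The synthetases did not place 2iLIF alike. Tars and Nars were near their ES level in 2iLIF, at 88.4 ± 3.44 FPKM against 94.6 ± 4.34 for Tars and 172 ± 5.46 against 186 ± 7.03 for Nars, and their differences did not pass (limma adjusted p = 0.142 and 0.0707). Both lay far below that in EPSCM, at 49.2 ± 1.06 and 99.1 ± 1.77 FPKM. Iars, the isoleucine enzyme, was at 93.8 ± 3.37 FPKM in ES, 98.9 ± 1.79 in 2iLIF and 68.3 ± 0.666 in EPSCM, a difference of -0.45 ± 0.05 between EPSCM and ES. For Gars, in contrast, the 2iLIF level of 142 ± 4.24 FPKM lay nearer to EPSCM than to ES.

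Vars, the valine enzyme, stood apart from the other synthetases. By library it was at 113, 96.8 and 99.9 FPKM in ES, 64.8, 57.4 and 59.0 in 2iLIF and 88.0, 103 and 87.8 in EPSCM. The ES and EPSCM libraries overlapped, and all 2iLIF libraries lay below them. Its difference was -0.15 ± 0.09 in EPSCM against ES (limma adjusted p = 0.148), a direction that turned to 0.023 after quantile normalization, and 0.61 ± 0.09 in EPSCM against 2iLIF (limma adjusted p = 0.000231). Whether Vars differs from the other synthetases was not tested as such.

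**Figure D3:**
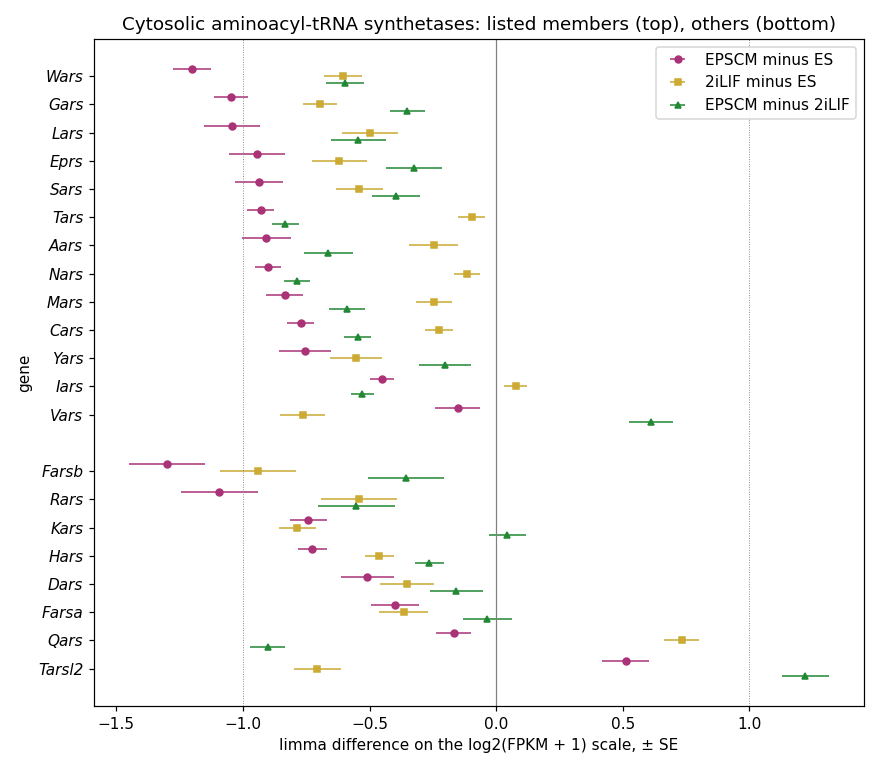
limma differences ± SE on the log2(FPKM + 1) scale (horizontal axis) for the 13 listed synthetases (top) and 8 further cytosolic synthetase genes (bottom) in the 3 comparisons; dotted lines mark a difference of 1. In EPSCM minus ES all 13 listed genes lie left of 0, from -1.20 for Wars to -0.15 for Vars, and among the further genes only Tarsl2 lies right of 0.

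Promoter sequences were read to show the kind of element that ATF4 is known to bind. RefSeq promoter windows of GRCm38.p6, from 250 bases before to 50 bases after a start site, were matched by symbol for 28 of 34 members; Cars, Eif4ebp1, Lars, Nars, Vars and Wars were not matched. The core of the C/EBP-ATF composite element was searched as TGATGNAA on both strands (TTNCATCA when read on the gene strand). It was found in 11 of the 28 members (39.3%), in 5 of 8 synthetases and 6 of 20 other members. Of all 27025 gene symbols with a window 4.51% had it, and of the 9689 among them that were tested 2.48%. The list was made up of genes linked to ATF4 beforehand, so these shares describe the list and are not a test. The 30 bases around the match are given below for 6 of the members with a match, those with the largest difference in any comparison; they are written 5′ to 3′ on the gene strand with the match in capitals.
Asns (chr6:7693214-7693243, minus strand): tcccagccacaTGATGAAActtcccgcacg
Trib3 (chr2:152344028-152344057, minus strand): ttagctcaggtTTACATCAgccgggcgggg
Nupr1 (chr7:126625562-126625591, minus strand): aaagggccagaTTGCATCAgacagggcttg
Gars (chr6:55037960-55037989, plus strand): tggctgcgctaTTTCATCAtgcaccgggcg
Chac1 (chr2:119351038-119351067, plus strand): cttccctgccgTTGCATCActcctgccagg
Tars (chr15:11399655-11399684, minus strand): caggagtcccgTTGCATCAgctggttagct

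Read in one direction, the matches of Nupr1, Chac1 and Tars are the same 8 letters, as are those of Asns and Gars, and Trib3 has a match of its own. Aars, Atf3, Iars, Pycr1 and Yars also had a match, Aars at 2 places. Counted from the start site, the match of Asns began 23 bases before it, that of Gars 30 before, and that of Tars 15 before, while that of Chac1 began 193 before and that of Trib3 lay 15 bases after it. In Atf3 and Nupr1 it began 110 bases before the start. Members with a match differed in how they varied over the media. Asns rose in 2iLIF, and Tars was near its ES level there. Trib3 and Gars lay below ES in 2iLIF (-0.83 ± 0.08 and -0.70 ± 0.07) and further below it in EPSCM. Over the 11 members with a match the differences in EPSCM against ES ranged from -1.15 to 0.40 (median -0.76), and over the 17 without one from -1.63 to 2.27 (median -0.87). A match is a description of the letters in this window only, and Ddit3, Phgdh, Psat1 and Mthfd2, among others, had none in it.

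**Figure D4:**
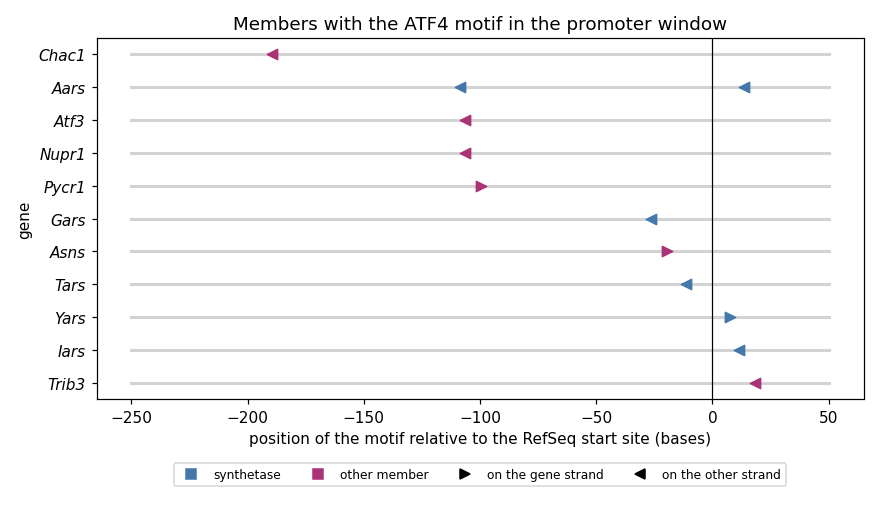
Position of each match to the C/EBP-ATF core motif in the promoter windows of the 11 members that hold one, in bases from the RefSeq start site (horizontal axis; grey lines span the window, from 250 before to 50 after the start). Triangles show the strand of the match and colours separate synthetases from other members; synthetase matches lie within 30 bases of the start, except the first of the 2 in Aars.

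The remaining genes of tRNA charging were described from fixed lists. Of the 8 further cytosolic synthetase genes, 2 were called lower and none higher in EPSCM against ES, with a median of -0.62. Over all genes tested, 7.97% were called lower and 11.7% higher, with a median of 0.09. Farsb, a subunit of the phenylalanine enzyme, fell to 41.7 ± 7.52 FPKM from 103 ± 12.6 (-1.30 ± 0.15), and Rars, the arginine enzyme, to 55.1 ± 10.2 from 118 ± 16.01 (-1.09 ± 0.15); Farsb lies on chromosome 1. Qars, the glutamine enzyme, was highest in 2iLIF, at 189 ± 8.20 FPKM against 114 ± 7.45 in ES and 101 ± 6.49 in EPSCM, short of the fold limit. Tarsl2, a second threonine enzyme gene at low level, was called higher in EPSCM than in 2iLIF, at 3.16 ± 0.401 against 0.779 ± 0.0473 FPKM. The scaffold genes Aimp1 and Aimp2, which hold the multi-synthetase complex together, were at -0.57 ± 0.05 and -0.74 ± 0.07 in EPSCM against ES, and no gene of the 3 in that list was called in any comparison.

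The 17 mitochondrial synthetases, which charge tRNAs inside the organelle, had no call in EPSCM against ES, where 19.7% of all genes tested were called. Their median was -0.48, against 0.09 over all genes tested. At an adjusted p under 0.05 by limma 10 were lower and 3 higher, against 31.5% and 41.6% of all genes tested. Wars2, the tryptophan enzyme, was called lower in EPSCM than in 2iLIF, at 1.16 ± 0.0834 against 4.34 ± 0.163 FPKM. Lars2 had a wide spread within media, with 85.4, 70.9 and 421 FPKM in the ES libraries, and passed no comparison.

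Upstream of Atf4, the list of eIF2 kinases, eIF2 and eIF2B held 15 genes. Of these 2 were called lower and none higher in EPSCM against ES (median 0.07), against 7.97% and 11.7% of all genes tested (median 0.09). Eif2ak1, the kinase that responds to heme shortage, fell to 13.7 ± 0.975 FPKM in EPSCM from 30.6 ± 1.18 in ES and 28.6 ± 0.738 in 2iLIF. Eif2ak4, the kinase GCN2 that senses uncharged tRNA, lay the other way, at 11.6 ± 0.495 FPKM in EPSCM, 8.87 ± 0.110 in 2iLIF and 6.82 ± 0.293 in ES, a difference of 0.68 ± 0.06 from ES, short of the fold limit. Eif2ak3, the kinase PERK of the endoplasmic reticulum, was at 13.1 ± 0.477 FPKM in EPSCM against 8.22 ± 0.607 in ES (0.61 ± 0.07). Impact, an inhibitor of GCN2 activation, rose to 69.7 ± 9.11 FPKM in 2iLIF from 18.4 ± 2.36 in ES (1.86 ± 0.14) and was at 38.0 ± 5.71 in EPSCM. Of the subunits of eIF2B, the exchange factor that phosphorylated eIF2 blocks, Eif2b2 was called lower in EPSCM against ES (-1.06 ± 0.08) and Eif2b4 against 2iLIF (-1.42 ± 0.09).

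Other known ATF4 target genes, 28 of 30 of them tested, had no common direction. In EPSCM against ES 3 were called higher and 1 lower, against 11.7% and 7.97% of all genes tested, and the median was 0.02. Slc7a3, a cationic amino acid transporter, fell to 7.68 ± 0.184 FPKM in EPSCM from 95.2 ± 5.40 in ES and 71.5 ± 2.46 in 2iLIF, a difference of -3.47 ± 0.06 from ES. Ddit4, an inhibitor of mTORC1 that hypoxia also induces, had 166 ± 16.9 FPKM under EPSCM conditions, 79.4 ± 6.43 under ES conditions and 12.995 ± 1.52 in 2iLIF, and all 3 comparisons were called. Ero1l, an oxidase of the endoplasmic reticulum, rose with Ddit3 in EPSCM, to 50.04 ± 5.22 FPKM from 9.58 ± 0.730 in ES and 9.15 ± 1.16 in 2iLIF. Vldlr, a lipoprotein receptor, rose in EPSCM to 2.22 ± 0.300 FPKM from 0.531 ± 0.126 in ES (1.07 ± 0.10). Slc7a11, the cystine transporter, had means of 1.57 ± 0.0577 FPKM in ES, 1.201 ± 0.0468 in 2iLIF and 1.42 ± 0.0837 in EPSCM, with no call.

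Some of these targets were, like Asns, highest in 2iLIF. Cth and Cbs, enzymes of cysteine synthesis, were at 80.7 ± 4.44 and 32.1 ± 2.90 FPKM in 2iLIF against 38.9 ± 1.29 and 10.5 ± 0.373 in ES, and Bcat1, a branched-chain aminotransferase, at 184 ± 14.8 against 55.4 ± 3.53. All 3 were called higher in 2iLIF than in ES and lower in EPSCM than in 2iLIF. Gadd45a and Stc2, stress genes, were called lower in 2iLIF than in ES, by -2.41 ± 0.09 and -2.02 ± 0.11. Of the 28 genes tested, 4 were called higher and 3 lower in 2iLIF against ES, where 7.62% and 7.12% of all genes tested were. In EPSCM against 2iLIF 6 were called higher and 5 lower, against 10.1% and 5.91%.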

How the data were processed

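The authors deposited 1 table of FPKM values, 1 per gene and library, made with STAR and Cuffnorm against mm9, per the submitters' processing notes; the sources used here do not state versions, annotation, scaling between libraries or use of strand. Because FPKM are relative to the library, very abundant genes can move the values of the rest. Libraries were stranded and made after messenger RNA selection, per the labels' protocols. Library sums were 546636 to 600728 FPKM. Every column was used.

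Values were taken as log2(FPKM + 1). The filter of 1 FPKM in 3 or more of the 9 libraries left 12330 of 24819 genes, and 1 limma model (limma 3.58.1, R 4.3.3; variance prior with a trend) was fitted to all 9 libraries, with Benjamini-Hochberg adjustment over the genes kept. It was tested on simulated data. Members and lists were chosen with earlier results of these data known. Every member was named; of the other lists, up to 3 called genes per comparison with the largest difference and at least 1 FPKM, and fixed key genes; not all of these are printed, and 1 result is not reported here. Outside that rule, Cth, Cbs, Bcat1, Qars, Aimp1, Aimp2, Lars2 and the single fibroblast and endoderm markers that the rule does not name were chosen after their values were seen.

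The steps in FPKM give about 20100000 to 31900000 fragments per library. From such fragment numbers, chi-square values per degree of freedom within a medium came to 1.59 to 3.09 for the closest pair and 13.6 to 20.7 for the pairs with the library that stands apart, where counting noise alone gives about 1, so no library was treated as a duplicate. Depth estimates use transcript lengths of another annotation and are rough. Alternatives covered pseudocount, filters, scaling, single libraries, the fit and the genes of chromosomes 1, 14 and Y. Promoters and chromosomes came from RefSeq tables of GRCm38.p6, matched by symbol; because the expression values use mm9, their coordinates apply to the sequences only.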

Additional observations from a re-analysis of the deposited data

How the results depend on the processing

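Of 21 member differences that were called, 17 kept direction and call under every alternative run, 4 lost the call under at least 1 (Gars, Lars and Psat1 in EPSCM against ES, Cebpb in EPSCM against 2iLIF) and none reversed. Of the 81 not called, 7 passed under at least 1 alternative, and 9, all close to 0, changed sign. Several alternatives can change the adjusted p but not the estimate, so a kept direction there was fixed in advance. These are the filters, a fit to only the media compared, the variance prior without a trend, the covariate and the removal of chromosomes. The same holds for leaving out a library of the medium not compared. After quantile normalization the reversed values were 0.015 for Aldh18a1 (EPSCM against 2iLIF), 0.049 for Nars and 0.050 for Tars (2iLIF against ES) and 0.023 for Vars (EPSCM against ES). With the close libraries only they were 0.014 for Aldh18a1 and 0.0082 for Cebpg (EPSCM against 2iLIF). Leaving out 1 library gave ranges of -0.042 to 0.049 for Aldh18a1, -0.15 to 0.052 for Atf3, -0.11 to 0.036 for Cebpg, -0.13 to 0.014 for Eif4ebp1 and -0.13 to 0.024 for Shmt2 in EPSCM against 2iLIF, and -0.099 to 0.064 for Ddit3 in 2iLIF against ES. With a filter on a mean of 5 FPKM, where fewer genes were tested, 1532 genes were called in EPSCM against ES, where the usual filter gave 2423, then 1025 against 1979 for EPSCM and 2iLIF, and 1055 against 1817 for 2iLIF and ES. There, 1 member was called higher in EPSCM against 2iLIF, since Cebpb was not tested; quantile normalization also left 1. A pseudocount of 0.1 gave more calls over all genes in each comparison. The counts were 2738 against 1817 in 2iLIF against ES, 3401 against 2423 in EPSCM against ES and 2835 against 1979 in EPSCM against 2iLIF. On the log2(FPKM + 1) scale low genes change less, and the part of this in the counts was not tested. Without the genes of chromosomes 1, 14 and Y, 10 members were called lower in EPSCM against ES, the number of the full set. This removal took out Eprs and Atf3, which were not called, and cannot move the estimate of a gene that stays. The count is therefore no test of the chromosome 1 shift. With a covariate for the apart libraries, which cannot move an estimate here, no member gained or lost a call at the fold limit. These libraries are the ones numbered 16, 18 and 19 in the sample titles. The limma adjusted p did change, for Aars in 2iLIF against ES from 0.0491 to 7.01e-07. Counts given above without the fold limit come from the fit without this covariate. No paired analysis was possible because the labels give no replicate numbers shared between media. Depth limits only genes at a few fragments, which no member is.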

Other observations

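The library that stands apart in each medium differed from the close libraries in a way that followed base composition: across the 12242 tested genes with a GENCODE transcript, its mean log2 shift had a Spearman correlation of 0.68 with the GC percent of the longest transcript and -0.24 with its log2 length. Genes share libraries and are not independent replicates, so this is a description. Over the 34 members the same correlations were 0.38 and -0.19. Asns had the largest negative mean shift of the members, at -0.44, and Phgdh the largest positive one, at 0.27. Each medium holds 1 such library.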
